A study of Mus musculus with 2 samples.

Results

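The tubulin mRNAs measured here were those of Tuba1a, Tuba1c, Tuba4a, Tubb2a, Tubb2b, Tubb3, Tubb5, Tubb6 and Tubg1 in NIH3T3 cells, an established mouse fibroblast line. They were chosen by name, from a list of 10 tubulin genes, as the non-control spots whose gene name on the array equals a member of the list. Spots were found for 9 of the 10 genes, out of 28095 gene names on the array, and no spot is named Tuba1b. The 9 genes were read by 16 probes of 60 bases on 25 spots. Control cells received no drug, and the others received thapsigargin at 10 µM during 3 h, a compound that blocks the calcium pump of the endoplasmic reticulum. From each condition the RNA was separated on a sucrose gradient into a polysome-bound pool (P, labelled with Cy3) and a pool of free RNA and monosomes (FM, labelled with Cy5), and both were hybridised to 1 array. Per the study's methods, the pools were labelled in the proportions found in the cells. That meant more P than FM RNA for control cells and more FM than P RNA for treated cells. The amounts of P and FM RNA that were labelled thus differed between the arrays by design. Each array held RNA pooled from 3 preparations, so there are 2 arrays in all, 1 per condition, and no difference between them has a replicate check.

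Tubulins are the subunits of microtubules. An α-tubulin and a β-tubulin fold with the help of the prefoldin and CCT chaperones and of the tubulin cofactors, join as a heterodimer and polymerise, and γ-tubulin starts new microtubules at the centrosome. Cells hold several genes for each of the α and β chains. The level of tubulin mRNA is known to be set by the amount of free tubulin dimer, through a factor, Ttc5, that recognises the nascent chain on the ribosome. Tuba1a, Tuba1c and Tuba4a encode α chains, Tubb2a, Tubb2b, Tubb3, Tubb5 and Tubb6 encode β chains, and Tubg1 encodes a γ chain. Tubb3 is best known as the neuronal β isotype.

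The measure of translation efficiency was log2 P/FM, in which the P signal is divided by the FM signal, and that of the overall signal was A, which averages log2 P and log2 FM. The change is the thapsigargin value minus the control value. Of 16 tubulin probes, 15 had A above 4.5 on both arrays and all 15 were well above background in both channels on both arrays. The 16th, a second Tubb6 probe designed on a cDNA (AK041002), was not well above background throughout, and it lies on the opposite strand to the other Tubb6 probe, so it shares the gene's name and not the strand of its mRNA. Its signals were 17.8 (P) and 15.4 (FM) in control cells and 33.3 and 18.8 with thapsigargin, and it was left out. All 7 fibroblast markers looked at were above background on both arrays, as was 1 of 3 leukocyte markers, Cd3e, while none of 5 neuronal, 2 epithelial and 2 endothelial markers was. No tubulin spot was saturated.

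In place of replicate error, the arrays offer how far the spots of a probe and the probes of an mRNA scatter, and both cover array error only. The change had a median standard deviation (SD) of 0.10 over the repeated spots of one probe (118 probes) and 0.32 over different probes of one mRNA (3438 mRNAs), and in 5% of mRNAs the latter exceeded 1.28. For 2 single probes a difference of 0.46 in the change is 1 SD. The error that the scanner software attached to the change of the 15 tubulin probes was between 0.29 and 0.36.

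Several tubulin mRNAs are near-identical in their coding part, so the probe sequences decide what is read. The first set is shown because one probe named for Tubb2a is shared within the family. Its accession entry holds the RefSeq transcripts of 4 genes, Tubb2a, Tubb2b, Tubb3 and Tubb6, and since no entry on the array holds more than 4 identifiers, further genes may be missing from it. In mm9 it lies at chr13:34166411-34166470 on the minus strand, and its last 25 bases, in capitals below, cover the same stretch as the first 25 bases of the first Tubb5 probe, at chr17:35971963-35972022 on the minus strand.
Tubb2a probe 2: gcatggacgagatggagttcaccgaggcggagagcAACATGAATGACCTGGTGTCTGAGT
Set against each other, 22 of the 25 bases were identical and 3 were not, which are in capitals in the next pair.
Tubb2a probe 2, bases 36 to 60: aacatgaaTgacctGgtGtctgagt
Tubb5 probe 1, bases 1 to 25: aacatgaaCgacctCgtCtctgagt

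The second set is shown because probes of one gene gave unlike changes. Tubb2a probe 3 is not in it. The mm9 position given for that probe of 60 bases spans only 30 bases, and that of the Tuba1a probe 16. The first Tubb2a probe lies at chr13:34167380-34168088 and its 60 bases span 709 bases of the genome, as a probe across an exon junction does. The same holds for the first Tuba4a probe, at chr1:75213535-75213830, which spans 296 bases. Tuba4a probe 3 lies at chr1:75212307-75212366. Each of these sequences is read in the sense of the mRNA, has at least 1 reading frame without a stop codon, and names 1 gene among the RefSeq transcripts of its accession entry.
Tubb2a probe 1: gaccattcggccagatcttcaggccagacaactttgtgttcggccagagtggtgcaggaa
Tuba4a probe 1: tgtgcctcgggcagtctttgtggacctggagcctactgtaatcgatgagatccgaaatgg
Tuba4a probe 3: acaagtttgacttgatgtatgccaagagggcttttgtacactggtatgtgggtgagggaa

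Without normalization, the β- and γ-tubulin probes had more P than FM signal in control cells. With thapsigargin nearly the whole family had more FM than P signal. Of the 15 probes, 9 had log2 P/FM of 0.8 or more in control cells (8 of the 9 β and γ probes and 1 of the 6 α probes), against 29.1% of all probes with A above 4.5. With thapsigargin 14 of 15 lay below 0, against 61.2% of all probes. The change was negative for 14 of 15, against 66.2%, and log2 P/FM fell by 0.8 or more for 11 of 15, against 44.4%. None rose by 0.8 or more, against 17.2%. The median change of the 15 probes was -1.63, beside -0.61 over all 17173 probes. The medians behind it were 0.94 in control and -0.66 in treated cells for the tubulins, and 0.22 and -0.29 for all probes. The side of 0 in treated cells depends on the scaling. There the tubulin median was 0.38 with either scanner software value, 0.040 with loess and 2.30 with spike-in scaling. It stayed below 0 in the other alternatives that give it.

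**Figure D1:**
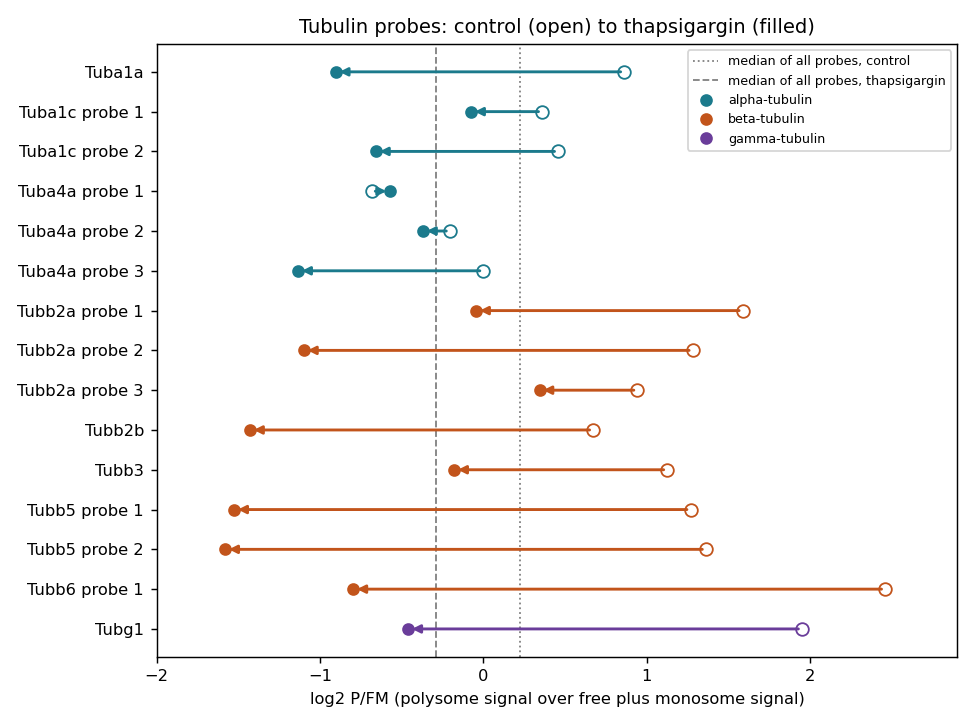
Each row is a tubulin probe, with log2 P/FM (polysome over free plus monosome signal) on the x axis, an open circle for control and a filled circle for thapsigargin cells, 1 array each. The longest arrow is that of Tubb6, from 2.46 to -0.80, only Tuba4a probe 1 points to the right, and the vertical lines are the medians of all probes, 0.22 (dotted) and -0.29 (dashed).

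The α and β chains, which are used in equal numbers, did not change alike. The median change was -0.77 over the 6 α probes, which ranged from -1.77 to 0.11, and -2.24 over the 8 β probes, from -3.25 to -0.60. Tubg1 changed by -2.41. A fall of 0.8 or more was seen for 3 of 6 α and 7 of 8 β probes, against 44.4% of all probes. The median change of all probes was -0.61, so the α probes lay near the whole array. The ranges overlap, through Tuba1a, Tuba1c probe 2 and Tuba4a probe 3 on one side and Tubb3 and Tubb2a probes 1 and 3 on the other.

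Without normalization Tubb6 had the largest change of the family. Its P signal was 13643 in control and 12835.5 in treated cells, and its FM signal was 2484 and 22283. The polysome signal was thus nearly the same on both arrays, while the FM signal was 8.97 times higher on the thapsigargin array. log2 P/FM went from 2.46, the highest of the family, to -0.80, a change of -3.25. A fraction of 0.809% of all probes had a lower change.

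Tubb5 was read by a pair of probes that lie side by side on chromosome 17. For probe 1, P was 52512 in control and 30665 in treated cells, and FM was 21823 and 88254. For probe 2 (chr17:35971872-35971931), P was 74950.1 and 37192, and FM was 29178 and 111203. Both therefore had a lower P and an FM 4.04 and 3.81 times higher. log2 P/FM changed by -2.79 and -2.94, a difference below the spread between probes, and the gene went from 1.31 ± 0.07 to -1.55 ± 0.04 (SD, 2 probes).

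Tubg1, the γ-tubulin of the centrosome, was read by 1 probe at chr11:100987464-100987523. Its P signal was 2527 in control and 1922 in treated cells, and its FM signal was 655 and 2643. As for the Tubb5 probes, FM was about 4 times higher (4.04) and P was lower. log2 P/FM went from 1.95 to -0.46, a change of -2.41, within 1 SD of a difference between probes from Tubb2b and just over it from Tubb5.

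Tubb2b was dim, with P signals of 82.0 in control and 46.3 in treated cells and FM signals of 51.5 and 125. Its log2 P/FM went from 0.67 to -1.43, a change of -2.10. At such signals the background correction matters: with normexp correction the change was -0.49, and with no background subtraction -1.35.

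Tubb3 was the tubulin printed most often, with 10 spots, of which 3 were flagged as outliers. Over the remaining 7 spots P was 272 ± 14.4 in control and 229 ± 8.92 in treated cells, and FM was 125 ± 8.20 and 259 ± 8.65 (SD over spots). The P and FM signals thus swapped order. Single spots ranged from 249 to 287 against 217 to 245 in P, and from 113 to 139 against 241 to 269.9 in FM. These are repeats of 1 probe within an array, so their spread does not cover a difference between whole arrays. log2 P/FM went from 1.12 ± 0.08 to -0.18 ± 0.06, a change of -1.30 ± 0.05, and with the flagged spots kept it was -1.28. As for Tubb2b, normexp correction made the change smaller, -0.33. None of the 5 neuronal markers was above background on either array.

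The 3 Tubb2a probes gave unlike changes. For probe 1, P was 699 in control and 374 in treated cells and FM was 233 and 386. For probe 2, the one shared with other β-tubulins, P was 36461 and 23635 and FM was 15012 and 50606. For probe 3, P was 4728 and 3965 and FM was 2461 and 3126. In all 3 the P signal was lower and the FM signal higher with thapsigargin, but FM was 1.66, 3.37 and 1.27 times higher. The changes were -1.63, -2.38 and -0.60, with a mean of -1.54 ± 0.89 (SD, 3 probes). Of the 3, the shared probe lay closest to the Tubb5 probes. Without it the mean was -1.12, and the part of the other mRNAs in its signal was not tested.

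Among the α-tubulins Tuba1a changed most. Its P signal was 19602 in control and 10382 in treated cells, and its FM signal was 10789 and 19424, so P was 0.530 times and FM 1.80 times the control signal. log2 P/FM went from 0.86 to -0.90, a change of -1.77.

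For Tuba1c, probe 1 had P signals of 2599 in control and 1017 in treated cells and FM signals of 2027 and 1072. Probe 2 (chr15:98868480-98868536) had P signals of 59444 and 36099 and FM signals of 43314 and 56946. P was lower for both, but FM was lower for the first and higher for the second. The changes were -0.43 and -1.11, with a mean of -0.77 ± 0.48 (SD, 2 probes).

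Tuba4a was the member least on polysomes in control cells, with a mean log2 P/FM of -0.30 ± 0.35 over 3 probes. Probe 1 had P signals of 109 in control and 64.9 in treated cells and FM signals of 174 and 96.5. Probe 2 had P signals of 154 and 78.1 and FM signals of 178 and 101. Probe 3 had P signals of 14400.4 and 6128 and FM signals of 14404 and 13446. All 3 were lower in both pools on the thapsigargin array. The changes were 0.11, -0.16 and -1.13, with a mean of -0.40 ± 0.65. Only that of probe 3 was larger than the spread between probes, and whether it reads other α-tubulin mRNAs was not tested.

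**Figure D2:**
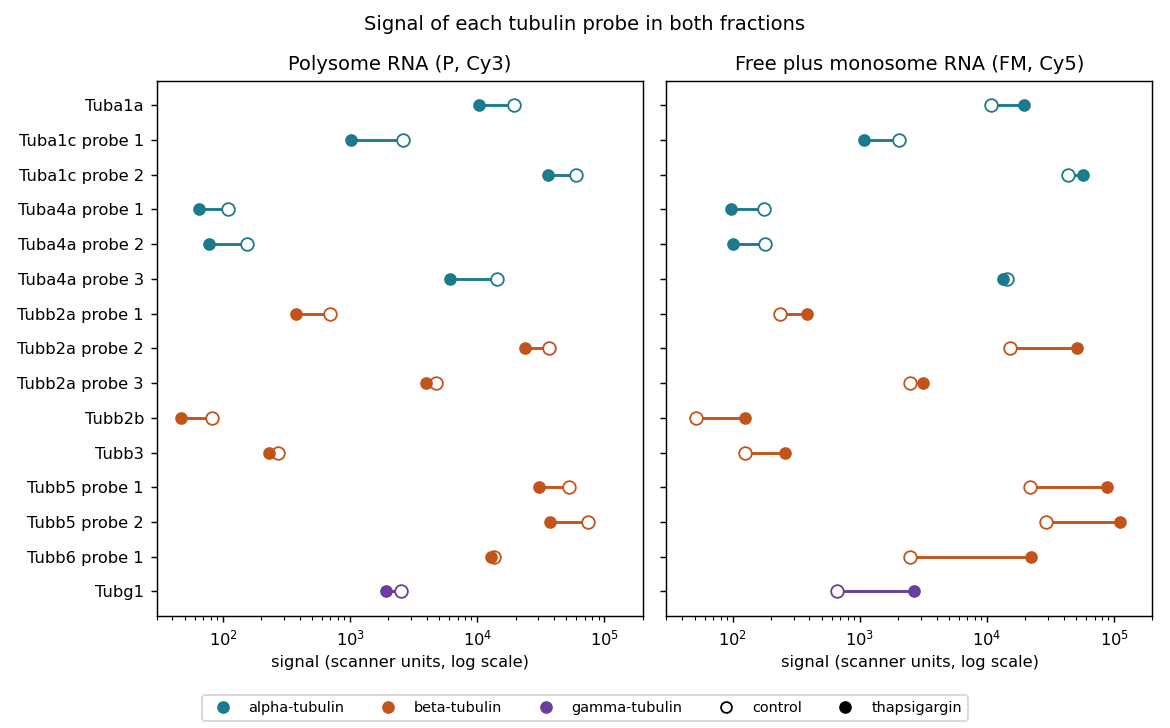
Signals of the 15 tubulin probes after background correction, in scanner units on a log axis, for the polysome pool (left) and the free plus monosome pool (right), with open circles for control and filled circles for thapsigargin cells. All 15 probes had a lower P signal with thapsigargin, while the FM signal was higher for all 9 β and γ probes and lower for 4 of the 6 α probes.

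Both pools together show where the classes part. The P signal was lower with thapsigargin for 15 of 15 tubulin probes, against 47.5% of all probes. The FM signal was higher for 11 of 15, against 82.4% of all probes, namely for all 9 β and γ probes and for 2 of the 6 α probes, Tuba1a and Tuba1c probe 2. The other 4 α probes were lower in both pools, against 5.9% of all probes. The median log2 difference in FM was 1.75 over the β and γ probes, -0.46 over the α probes and 0.67 over all probes. In P the medians were -0.63, -0.95 and 0.07.

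The signal A, used as a measure of abundance, followed from this. A was lower with thapsigargin for 7 of 15 tubulin probes, against 24.5% of all probes, and these were all 6 α probes (-1.14 to -0.03) and Tubb2a probe 1 (-0.09). Over all probes the median difference was 0.37. It was -0.73 for the α probes and 0.46 for the β and γ probes. A fell by 1 or more for 1 probe, the first of Tuba1c, against 1.29% of all probes, and rose by 1 or more for 1 probe, Tubb6 at 1.54, against 12.7%. By gene, A was lower for 3 of 3 α-tubulins and for none of the 6 others. Over different probes of one mRNA the difference in A had a median SD of 0.18. Tuba1a (-0.03), Tuba1c probe 2 (-0.16) and Tubb2a probe 1 (-0.09) lay within it, so their sign is not resolved. The median of the α genes lay below that of the others in every alternative that gives A, but the zero moved. After centring each array, and with normexp correction, A was lower also for 3 of the 6 β and γ genes. That count was 2 with processed signals and 1 without the shared Tubb2a probe. After scaling to the spike-in probes A was lower for 2 of the 3 α genes. In bulk RNA, fewer cells with an mRNA and less of it per cell cannot be told apart.

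The change in log2 P/FM was more negative for brighter probes over the whole array, and the tubulin probes covered a wide range of A. Each change was therefore set beside the median of all probes within 0.5 of its mean A, a comparison chosen after the values were seen. All 6 α probes lay above that median, by 0.08 (Tuba1a) to 0.96 (Tuba1c probe 1). Of the 9 β and γ probes, 8 lay below it, by -0.36 (Tubb2a probe 2) to -1.99 (Tubb2b), and Tubb2a probe 3 lay above it by 1.00. Tubb6 was at -1.50, both Tubb5 probes at -0.88 and -1.01, and Tubg1 at -0.98. Among probes of like signal, 3.37% had a lower change than Tubb2b, 4.30% than Tubb5 probe 2 and 4.88% than Tubb6. For the α probes these shares lay between 51.5% and 75.3%.

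**Figure D3:**
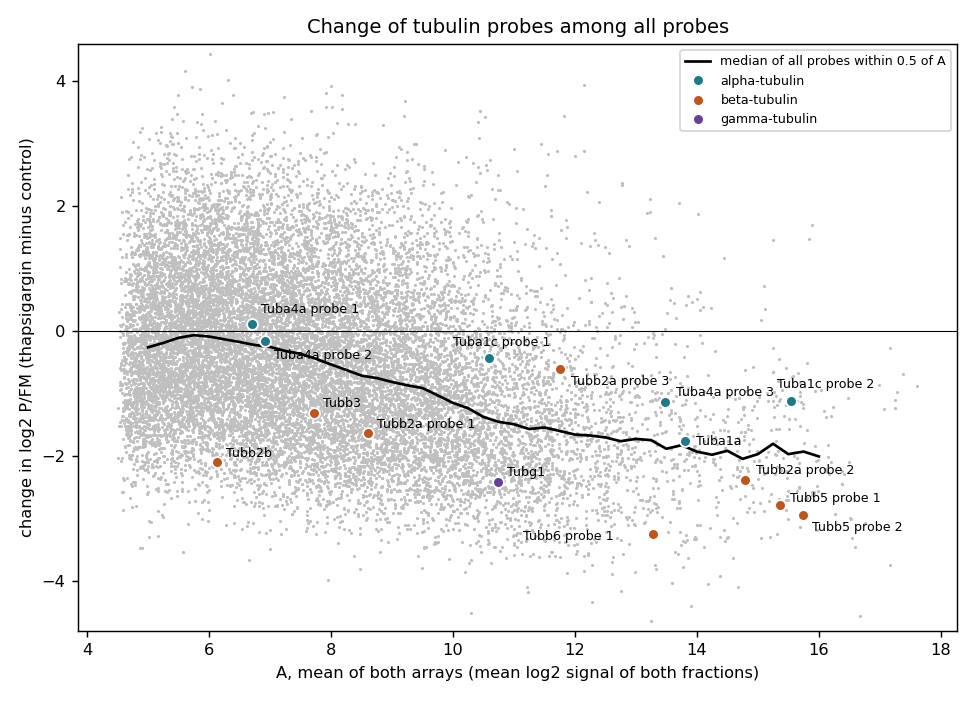
Change in log2 P/FM (thapsigargin minus control) against the mean A of both arrays, for all 17173 probes (grey) and the 15 tubulin probes (coloured by class). The black line is the median of all probes within 0.5 of A, and the 6 α probes lie above it while 8 of the 9 β and γ probes lie below it.

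By gene, the levels in control cells ran from Tubb6 (2.46) and Tubg1 (1.95) over Tubb5 (1.31), Tubb2a (1.27), Tubb3 (1.12), Tuba1a (0.86), Tubb2b (0.67) and Tuba1c (0.41) to Tuba4a (-0.30). The steps from Tubb6 to Tubg1, from Tubg1 to Tubb5 and from Tuba1c to Tuba4a were larger than 0.41, which is 1 SD for a difference of 2 probes, and the other neighbours did not differ beyond it. With thapsigargin the order was Tubb3 (-0.18), Tubb2a (-0.27), Tuba1c (-0.37), Tubg1 (-0.46), Tuba4a (-0.69), Tubb6 (-0.80), Tuba1a (-0.90), Tubb2b (-1.43) and Tubb5 (-1.55). Only the step from Tuba1a to Tubb2b was larger than 1 SD, there 0.40. The 9 genes spanned 2.75 in control and 1.37 in treated cells. In the changes, only the steps between Tuba1c and Tubb3 and between Tubg1 and Tubb5 exceeded 1 SD of 0.46. This SD is for 2 single probes, and the changes of Tuba1c, Tuba4a and Tubb2a scattered more over their own probes (SD 0.48, 0.65 and 0.89). Tuba1c probe 2 (-1.11) lay near Tubb3 (-1.30), and the step from Tubg1 to Tubb5 was 0.458 against 0.456. Neither step is therefore resolved.

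Centring and spike-in scaling move all members by the same amount and leave their order, but the sign of the changes moved with the scaling. That held for large changes too, as for Tubg1, at -2.41 without normalization and 0.14 with spike-in scaling. With loess normalization within each array the 3 α genes changed by 0.06 (Tuba1a), 0.86 (Tuba1c) and 0.42 (Tuba4a), while all 6 β and γ genes stayed below 0. With the processed signals of the scanner software the values for Tuba1c and Tuba4a were 0.27 and 0.11. Tubb6 was not the lowest member under either of these settings. It changed by -1.35 with loess and -1.20 with processed signals, where Tubb2b changed by -1.98 and -2.44. Scaled to the 10 spike-in probes, whose own log2 ratio differed by -2.44 between the arrays, Tubb5 (-0.32) and Tubb6 (-0.70) were the members below 0, and the median of all probes was 1.94. The median of the β and γ genes was below that of the α genes in the values without normalization, by -1.48, and in every alternative computed, by between -0.90 (normexp correction) and -1.56 (median spot signals). Centring and spike-in scaling cannot move this difference, and several filters also left it at -1.48, so these are no further check of it.

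**Figure D4:**
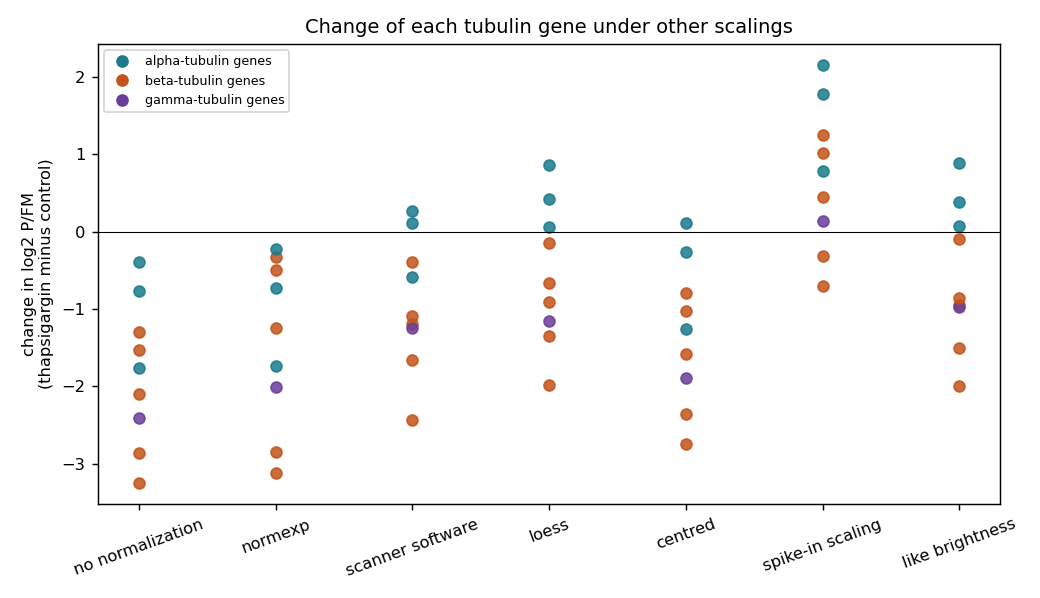
Mean change in log2 P/FM of each of the 9 tubulin genes (points, coloured by class) without normalization and under 6 other scalings along the x axis. The zero moves with the scaling, as with the spike-ins, where the α genes reach 2.15, while the 3 α genes have a higher median than the 6 β and γ genes under each.

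The tubulins outside the list that are reported here were Tuba3a, Tuba8, Tubb2c (now Tubb4b), Tubb4 (now Tubb4a), Tubd1, Tube1 and Tubg2, of which 5 probes of 5 genes passed the filter. Their changes ran from -2.30 for Tubb4, which went from 0.93 to -1.37, to 0.60 for Tube1, which went from -1.12 to -0.51. The δ-tubulin Tubd1, a centriole tubulin, changed little (0.10), from 1.20 to 1.30. Tubb2c stayed on the polysome side, from 2.24 to 1.25, a change of -0.99. It lay above the median of probes of like signal by 0.13, unlike 8 of the 9 β and γ member probes. Tubb4 lay below that median, at -0.70. The probe named for the α-tubulin Tuba3a that passed changed by -0.95 and was lower in A (-0.47), as the α members were. It also lay above the median of probes of like signal, by 0.95. The accession entry of this probe holds 2 genes, Tuba3a and Tuba3b. Its signals in control cells were 15093 (P) and 13512.5 (FM), against 7.95 and 13.4 for the other Tuba3a probe. Whether it reads other α-tubulin mRNAs was not tested. The probes of Tuba8 and Tubg2, and the remaining probes of Tuba3a and Tube1, were not well above background.

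The genes that fold, bind, cut, modify or carry along microtubules were taken from 10 fixed lists and described by counts beside the 44.4% of all probes that fell by 0.8 or more. All 7 prefoldin probes fell by 0.8 or more, from Pfdn1 (-2.33, from 0.00 to -2.32) to one of 2 Vbp1 probes (-1.34, from 0.72 to -0.63, the other -1.50), with a median of -1.67. A was lower for 5 of them, against 24.5% of all probes. Of the CCT chaperonin, the ring that folds actin and tubulin, 9 of 10 probes fell by 0.8 or more, from Cct7 (-2.40) to one Tcp1 probe (-0.41), with a median of -1.28. None of its 10 probes was lower in A, beside the same 24.5%.

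The tubulin folding cofactors split into a low and a flat group. Of 9 probes 5 fell by 0.8 or more, and the median was -1.61. Tbcb, which takes up α-tubulin, had the largest fall, from 2.53 to -0.99 (-3.52), and its P signal was 8855 in control and 3363 in treated cells. Tbcel, a relative of cofactor E, was at the other end (0.22 and 0.07 in its 2 probes).

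Of the tubulin mRNA decay pathway, none of the 3 probes above the filter fell by 0.8 or more. Ttc5 was nearly level, with P of 174 and 177 and FM of 85.7 and 75.01 in control and treated cells, and its log2 P/FM went from 1.02 to 1.24. Scaper, a partner that brings in the deadenylase, changed by 1.40 and 0.83 in its 2 probes and was higher in A by 1.49 and 1.56. Both probes were dim in control cells, with P of 27.0 and 45.2 and FM of 74.6 and 78.6. Background correction matters at such signals, and other corrections were not tested for Scaper. A second Ttc5 probe was below the filter.

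The regulators of microtubule growth and breakdown went both ways. Among destabilising and severing proteins 7 of 16 probes fell by 0.8 or more, near the share of all probes. Stmn1, stathmin, which holds tubulin dimers, had a probe with the lowest change of any list, from 2.47 to -1.29 (-3.75), while its other probe went from 1.17 to -0.95 (-2.12), and Fign, a severing enzyme, was highest (1.34). Among microtubule-associated and plus-end proteins 8 of 27 did so, and 8 rose by 0.8 or more, beside 17.2% of all probes. They ran from Mapre3 (-1.63), an end-binding protein, to Mtap1b (3.08), now named Map1b, which went from -1.45 to 1.63.

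Among the γ-tubulin ring complex and its anchors 4 of 11 probes fell by 0.8 or more, and the median was 0.03, beside -2.41 for Tubg1 itself. They ran from Tubgcp4, a ring subunit (-1.39, with -1.09 for its other probe), to Pcnt (1.69), pericentrin, the scaffold of the centrosome. None of the 11 was lower in A, against 24.5% of all probes.

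Among the dynein and dynactin motor genes 12 of 28 probes did so, from Dctn3 (-3.10), a small dynactin subunit, to Dync1h1 (2.99), the dynein heavy chain, which went from -1.04 to 1.95. Among tubulin-modifying enzymes 10 of 21 did so, from Ttll12 (-2.60) to a Ttll4 probe (1.85) that was not well above background in every channel. Both shares are close to that of all probes.

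The actins and intermediate filaments, the other fibres of the cell, had 9 of 10 probes that fell by 0.8 or more, with a median of -1.65, close to the -1.63 of the tubulins. They ran from Vim (-2.07), the vimentin of fibroblasts, to the lamin Lmnb1 (-0.20). The Actb probe with 10 spots went from 1.69 to -0.07, a change of -1.75, and the single-spot Actb probe changed by -1.60. Beside probes of like signal these were at -0.30 and 0.10. On that measure the tubulin probes ran from -1.99 to 1.00 with a median of -0.36, and Tubb5 was at -0.88 and -1.01.

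**Figure D5:**
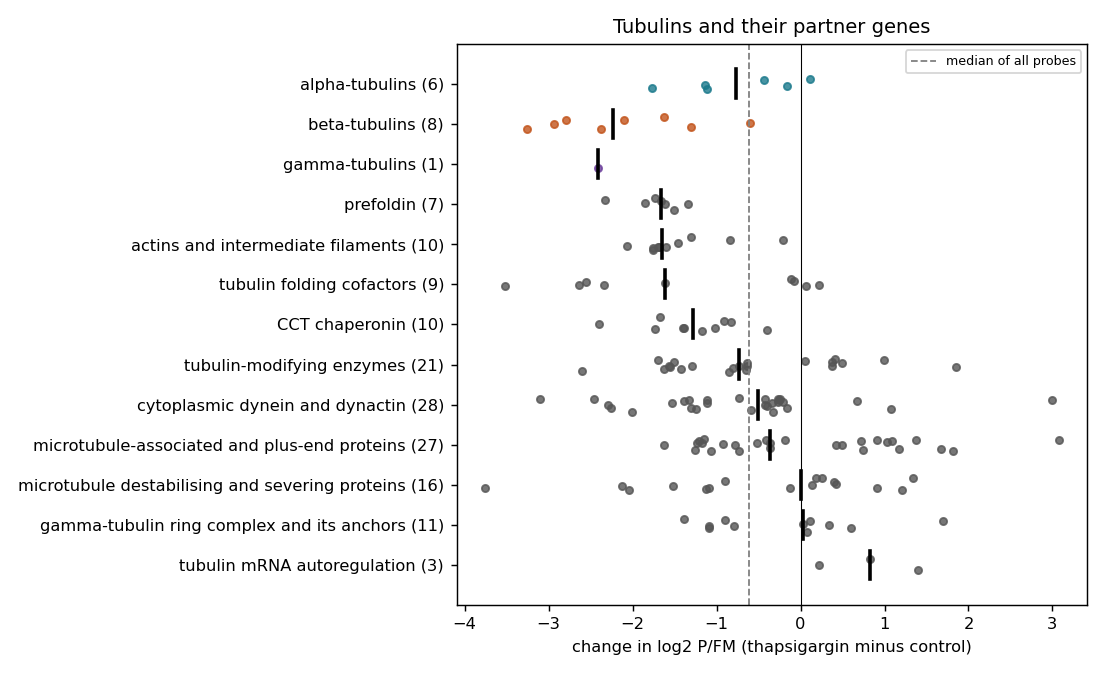
Change in log2 P/FM (thapsigargin minus control) of each probe of the tubulin classes and of 10 lists of partner genes, with the number of probes in brackets and the median as a black bar. The dashed line is the median of all probes, -0.61, and all 7 prefoldin probes lie left of it while Ttc5 and Scaper lie right of 0.

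The genes outside the family whose 4 values (log2 P/FM and A on both arrays) lay nearest to the median of the 15 tubulin probes, by Euclidean distance over the 2 arrays, were 1500035H01Rik (0.19), Fam173a (0.31), Ahcy (0.36), Ppp1cc (0.39) and Eif4e2 (0.39). The tubulin median was 0.94 in control and -0.66 in treated cells for log2 P/FM, with A of 11.7 and 11.8. The 5 genes changed by between -1.90 (Ahcy) and -1.57 (Fam173a).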

How the data were processed

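RNA of NIH3T3 cells was measured on 2 arrays, 1 per condition, and groups came from the labels. Per the file headers, spot and background intensity values came from Feature Extraction 10.7.1.1, which also gave processed signals, a log10 ratio and an error for it. Per the file headers, flags (a score of 0 or 1) mark spots well above background, saturated or outlying. The authors deposited log2 ratios of Cy3 to Cy5 for 11483 accessions, and nearly all equal the values computed here without normalization, within 0.001. Each spot was corrected with limma 3.58.1 by its local background median, values under 0.5 were set to 0.5, a background method that the study's methods name, and no normalization was applied, a step those methods do not mention. Spots flagged as outliers on either array (295 of 43379) were left out, spots of a probe were averaged, and probes with A above 4.5 on both arrays were kept. Between 42.5% and 46.3% of spots were well above background in each channel. One alternative scaled both arrays to the 10 spike-in probes. Shared stretches of probes had at least 20 bases with 75% identity. Sequences came from the deposited files, printed whole up to transcript position 1300 where a frame was open, and positions are on mm9. Current symbols came from a RefSeq table of GRCm38.p6, used for names only.

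Members and gene lists were chosen with earlier results of these data known. All member probes are named, with the highest and lowest probe of each list, Actb, Ttc5 and the 5 genes most like the family. With 1 array per group no test was made. The steps were tested on simulated data. Precision is limited by there being 2 arrays. Alternatives were other background corrections, signals, normalizations, filters and units, and 2 were added after seeing the data, relative to probes of like brightness and without the shared Tubb2a probe. A further tubulin name and some probe sequences are not reported here.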

Additional observations from a re-analysis of the deposited data

How the results depend on the processing

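No paired analysis was possible because each condition has 1 array. The median change of the tubulin probes moved from -1.63 to -1.11 with normexp correction, to -1.03 with either value of the scanner software (processed signals, log ratio), to -1.12 after centring each array, to -0.31 with loess, to -0.36 relative to probes of like brightness (chosen after seeing the data) and to 0.92 with spike-in scaling. The median in treated cells moved from -0.66 to 0.38 with either scanner software value, 0.040 with loess, 2.30 when scaled to the spike-ins and -0.37 when centred, and that in control cells from 0.94 to 0.51 with loess and 1.35 with spike-in scaling. Relative to all probes the median change of -1.02 moved to -0.23 with loess and -0.69 with A above 7. The count of 11 probes that fell by 0.8 or more became 5 with loess, 0 with spike-in scaling and 7 of 9 with each gene once. The median change in A, 0.05, became -0.17 with normexp, -0.31 with processed signals, -0.45 after centring, 0.30 with spike-in scaling, 0.22 with A above 7 and 0.23 with each gene once.

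Single genes changed sign as follows, and the cause was not tested. With spike-in scaling the changes were 0.78 (Tuba1a), 1.78 (Tuba1c), 2.15 (Tuba4a), 1.01 (Tubb2a), 0.45 (Tubb2b), 1.25 (Tubb3) and 0.14 (Tubg1). With loess they were 0.059 (Tuba1a), 0.86 (Tuba1c) and 0.42 (Tuba4a), with either scanner software value 0.27 (Tuba1c) and 0.11 (Tuba4a), after centring 0.12 (Tuba4a), and relative to probes of like brightness 0.075 (Tuba1a), 0.89 (Tuba1c) and 0.38 (Tuba4a). Tubb5 and Tubb6 were below 0 under every alternative run. The median change of all probes was -0.61 without normalization, 0.04 with normexp, -0.19 with processed signals, 1.94 when scaled to the spike-ins, -0.10 when centred and -0.08 with loess. With no filter on A, the dim probe of the opposite strand that bears the name Tubb6 entered its mean, which moved from -3.25 to -1.32; that is no value of the Tubb6 mRNA. Leaving out probes by their protein sequence was not run.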

Other observations

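A probe described in the files as an α-tubulin but named for no gene (NAP107975-1, mm9 chr15:98763105-98763164, minus strand) lay outside the family by name. Its P signal was 9459 in control and 4157 in treated cells, and its FM signal was 7971 and 5174, so both pools were lower with thapsigargin. log2 P/FM went from 0.25 to -0.32, a change of -0.56, which lay 1.16 above the median of probes of like signal, and A was lower by -0.90. No gene name was given to it here.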
